A study of Mus musculus with 50 samples.

Results

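Colon epithelial cells carrying a mutant p53 were compared with the parental line from which they were made. The comparison used 20 of the 50 arrays of the series, the 10 labelled mp53 and the 10 labelled YAMC, chosen by their titles, and 12883 of the 18193 genes with a symbol on the array were bright enough to be tested. YAMC (young adult mouse colon) cells come from a mouse that carries a temperature-sensitive simian virus 40 large T antigen under an interferon-inducible promoter, so that the cells divide at the permissive temperature with interferon gamma and lose T antigen activity at 39 °C. The mp53 cells are a polyclonal population made from them by retroviral infection with p53175H, a missense mutant of p53, together with an empty vector that confers neomycin resistance (Neo). The bleo/Neo population carries both empty vectors, the Ras population carries RasV12 with the bleo vector, and the mp53/Ras population carries p53175H and RasV12. YAMC cells carry neither vector nor selection marker, so mp53 and YAMC cells differ by the mutant p53 and by the infection and selection together, which cannot be told apart in that comparison alone. Before harvest every population spent 48 h at 39 °C followed by 24 h with 0% serum. RNA was taken from polysomes, so a level reflects both how much of a transcript was present and how much of it was loaded with ribosomes. Each population exists once, and the labels do not say that the arrays of a population came from separate cultures, so the p-values reflect only how these samples varied, which may be technical.

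p53 is a transcription factor that is stabilised by DNA damage and oncogenic stress and then induces genes for cell cycle arrest, apoptosis and its own inhibitor Mdm2. The mutation at this residue unfolds the DNA-binding domain, and the mutant protein can hold back wild-type p53 in the same cell by joining its tetramers. In colon tumours p53 is among the most often mutated genes. Large T antigen binds and blocks p53, so in YAMC cells the endogenous p53 is free once T antigen is inactive. The probe sets of p53 and of the Ras genes were not analysed here, and the introduced genes therefore do not check the labels.

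Levels are log2 intensities after the authors' normalization, and they run from 3.04 to 14.26 over the whole table with a median of 6.44. A level cannot be compared between genes, since probe sets differ in brightness. Differences are mp53 minus YAMC on the log2 scale, ± the standard error of a limma fit over all 50 arrays with 10 arrays per group. A gene was called at a Benjamini-Hochberg adjusted p under 0.05. Arrays give no read depth, and their number limits the precision.

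Of the colon markers, Krt8 and Krt18, keratins of simple epithelium, were bright in both groups, with YAMC means of 11.75 and 10.54. Epcam, an epithelial adhesion molecule, was moderately bright (8.40 in YAMC and 8.34 in mp53 cells), while Cdh1 (3.97 and 4.01), Vil1 (5.34 and 5.32) and Cdx2 (5.94 and 5.94), which mark polarised or intestinal epithelium, lay below the brightness filter. In all, 9 of the 22 colon markers on the array were not bright. The fibroblast and smooth muscle genes Acta2 (13.97 and 13.89) and Col1a1 (13.29 and 13.23) were high in both groups. Of 13 tested genes of that kind, 2 were called higher and 3 lower in mp53 cells, beside 11.1% and 11.8% of all tested genes. Among them were the smooth muscle genes Actg2 (1.07), Cnn1 (−1.0) and Lmod1 (−0.58), named after their values were seen. The other called genes were Dcn (0.56) and Des (−0.26), and the rest did not pass. The log2 of the summed marker intensities ran from 13.07 to 13.87 on YAMC and from 13.58 to 14.19 on mp53 arrays for colon epithelium. For fibroblast and smooth muscle genes it ran from 15.96 to 16.41 on YAMC and from 15.31 to 16.45 on mp53 arrays. The corresponding ranges were 10.92 to 11.63 and 10.84 to 11.26 for endothelial and immune genes, and 11.17 to 12.17 and 11.33 to 12.51 for squamous and neural genes. The ranges of the groups overlapped for every one of these 4 lists. In bulk RNA, fewer cells of a type and less RNA per cell cannot be told apart.

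Of the 20 arrays, 3 stood apart from their labels. The distance of an array to a group was taken as the root mean square log2 difference from the mean of that group's other arrays over all tested genes. The array labelled mp53 8 lay 0.497 from the other mp53 arrays and 0.362 from YAMC. The array labelled mp53 10 lay 0.418 from the other mp53 arrays and 0.266 from Ras. The array labelled YAMC 2 lay 0.517 from the other YAMC arrays and 0.482 from mp53. The other 8 mp53 arrays were 0.156 to 0.373 from their own group, and the other 9 YAMC arrays 0.196 to 0.348 from theirs. Whether the identities of these arrays, or of Ras 10 (below), were exchanged was not tested, and the values with all arrays take each label as given. The counts of called genes, the counts of most gene lists and the differences of the named genes from YAMC are also given without the 3 arrays. Because those arrays were singled out by their profiles, the values without them describe how far the results rest on them and are not an independent test.

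**Figure D1:**
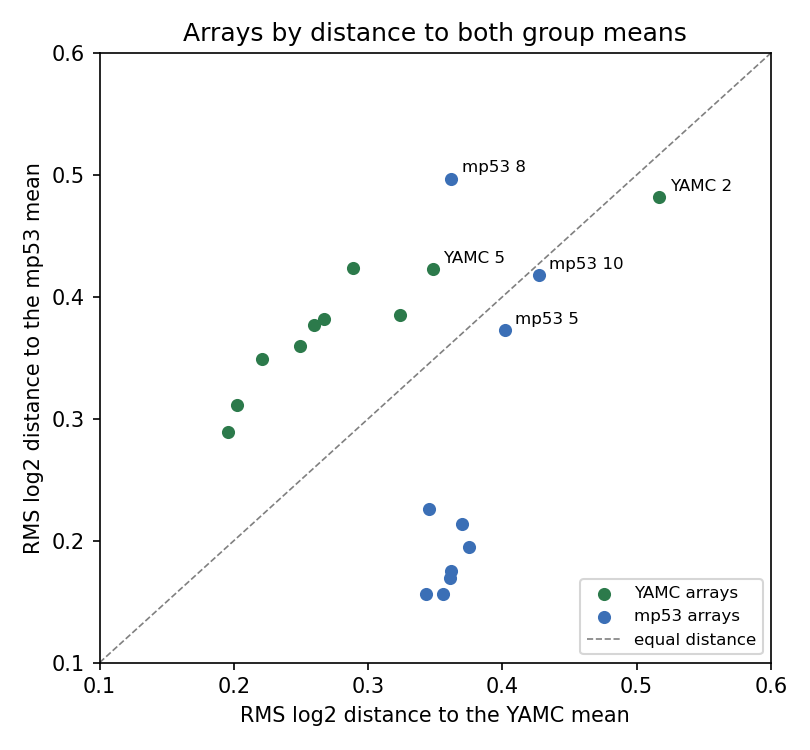
Root mean square log2 distance of each of the 20 arrays to the YAMC mean (horizontal) and to the mp53 mean (vertical) over 12883 genes, with the array itself left out of its group mean; the dashed line marks equal distance. mp53 8 lies on the YAMC side at 0.362 and 0.497, YAMC 2 on the mp53 side at 0.517 and 0.482, and mp53 10 close to the line.

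Between mp53 and YAMC cells 2952 of 12883 genes were called, which is 22.9% of those tested. Of these, 1433 (11.1%) were higher and 1519 (11.8%) lower in mp53 cells. Most differences were small, with a median absolute difference of 0.34 among the called genes, and the median over all tested genes was 0.00. A difference of at least 2-fold was reached by 103 genes (0.8%), of which 30 (0.233%) were higher and 73 (0.567%) lower. Without the 3 arrays 4170 genes (32.4%) were called, 2073 (16.1%) higher and 2097 (16.3%) lower, and 205 (1.59%) reached 2-fold, 51 (0.396%) of them higher and 154 (1.2%) lower. The 2 lists shared 2826 genes, all with the same direction, while 126 genes were called with all arrays and not without the 3. Of the 2952 genes, 2465 differed more without the 3 arrays than with them. The fit pools the spread of all 5 populations, so the 2952 calls rest in part on arrays of populations that are not compared. When only the 20 mp53 and YAMC arrays were fitted, 7 of the 61 called named genes lost their call.

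**Figure D2:**
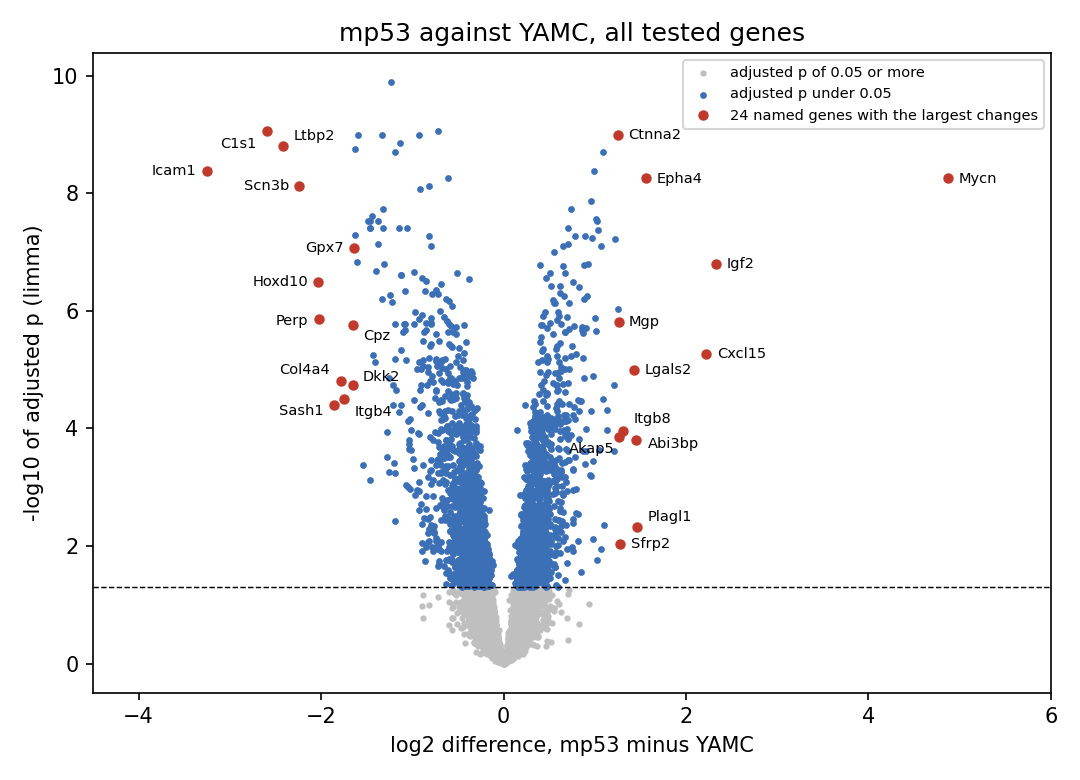
Each point is 1 of the 12883 tested genes, plotted by its log2 difference between mp53 and YAMC cells (horizontal) and the −log10 of the limma adjusted p (vertical); blue points are the 2952 called genes and red points the 24 named genes with the largest changes. More of the called genes that differ at least 2-fold lie on the lower side (73) than on the higher side (30).

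The largest rises in mp53 cells included a growth factor gene, an imprinted transcription factor gene, a chemokine gene and genes for matrix and guidance proteins. The first of them in size was a probe set annotated to Mycn, the gene of a MYC family transcription factor. That probe set read from 7.53 to 13.82 on YAMC arrays (median 7.65) and from 7.16 to 13.98 on mp53 arrays (median 13.90), a difference of 4.87 ± 0.55 (limma adjusted p = 5.62e-09) that became 6.15 ± 0.07 without the 3 arrays. The groups overlapped only through 1 array each, since YAMC 2 read 13.82 against 7.53 to 8.50 on the other 9 YAMC arrays, and mp53 8 read 7.16 against 13.84 to 13.98 on the other 9 mp53 arrays. The standard deviation was 1.94 on YAMC and 2.13 on mp53 arrays, but 0.13 in bleo/Neo, 0.06 in Ras and 0.05 in mp53/Ras cells. The standard error of 0.55 pools all of these and understates the spread of the 2 groups compared. The same probe set was bright in every population with vectors, from 13.19 to 13.66 in bleo/Neo, 13.67 to 13.89 in Ras and 13.98 to 14.16 in mp53/Ras cells, and it did not pass between mp53 and bleo/Neo (−0.28). Both other bright probe sets of Mycn differed by 0.00 and −0.02 between mp53 and YAMC cells. The rise was thus seen with 1 of 3 probe sets, and whether that signal comes from the Mycn transcript was not tested.

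Igf2 encodes insulin-like growth factor 2, a fetal growth factor expressed from the paternal allele. Its YAMC levels ran from 6.25 to 9.02 with a median of 6.48, and its mp53 levels from 7.03 to 9.95 with a median of 9.55. YAMC 2 was the high array of its group at 9.02, and mp53 8 (7.03) and mp53 10 (7.10) were the low arrays of theirs. The difference of 2.33 ± 0.31 (limma adjusted p = 1.59e-07), a 5.02-fold rise, became 3.08 ± 0.19 without the 3 arrays. Igf2 was also higher in mp53 than in bleo/Neo cells, by 1.39. Plagl1, an imprinted gene for a zinc-finger transcription factor, had YAMC levels from 9.0 to 10.21 (median 9.49) and mp53 levels from 7.45 to 11.94 (median 11.52). The groups overlapped through mp53 10 at 7.45, the lowest of all 20 arrays. Plagl1 rose by 1.47 ± 0.39 (limma adjusted p = 0.00486), and by 2.06 ± 0.34 without the 3 arrays, although another bright probe set of the gene differed by 0.01. In bleo/Neo cells the first Plagl1 probe set ranged only from 4.56 to 5.67, far below both other groups.

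A further 3 rises separated the groups on all 20 arrays. Epha4, an ephrin receptor gene, read 4.72 to 6.50 (median 5.46) on YAMC and 6.62 to 7.87 (median 7.11) on mp53 arrays. It rose by 1.56 ± 0.18 (limma adjusted p = 5.62e-09), and its other bright probe sets differed by 0.26 and 0.31. Mgp, which encodes matrix Gla protein, an inhibitor of calcification, read 5.77 to 6.46 (median 6.08) on YAMC and 6.61 to 8.16 (median 7.46) on mp53 arrays, a rise of 1.26 ± 0.19. Itgb8, an integrin subunit that takes part in the activation of TGF-beta, read 5.21 to 7.01 (median 6.68) and 7.14 to 8.49 (median 7.77), a rise of 1.31 ± 0.25. With the 3 arrays left out these rises were 1.65 for Epha4, 1.23 for Mgp and 1.28 for Itgb8. Of all tested genes, 20 (0.155%) were higher in mp53 cells without any overlap of the arrays and 11 (0.0854%) lower. Without the 3 arrays these counts were 306 (2.38%) and 497 (3.86%).

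The remaining rises among the 12 largest ran from 1.26 to 2.22. Cxcl15, a chemokine gene, rose by 2.22 ± 0.35 from a YAMC median of 4.92, which is below the median of the table, to an mp53 median of 7.36, and its other bright probe set differed by 0.29. Lgals2, a galectin gene, rose by 1.43 ± 0.24, with its other probe set at 0.44. Abi3bp, a matrix-associated protein gene, rose by 1.45 ± 0.29, and Sfrp2, a secreted modulator of Wnt signalling, by 1.28 ± 0.37. For both of these mp53 10 was the lowest of all 20 arrays, at 5.09 and 6.96. Ctnna2, an alpha-catenin gene, rose by 1.26 ± 0.13 and Akap5, a scaffold of protein kinase A, by 1.27 ± 0.25. Leaving out the 3 arrays gave 2.44 for Cxcl15, 1.48 for Lgals2, 1.79 for Abi3bp, 1.73 for Sfrp2, 1.45 for Ctnna2 and 1.15 for Akap5. Setting the vector population beside these 12 genes, 9 were also called higher in bleo/Neo than in YAMC cells, where 37.4% of all tested genes were called (20% higher and 17.4% lower). Against bleo/Neo 5 of the 12 were higher in mp53 cells, namely Igf2, Plagl1, Sfrp2, Akap5 and Mgp, and 4 were lower, beside 35.4% of all tested genes called (16.5% higher and 18.9% lower). The comparisons with bleo/Neo share arrays with those against YAMC, so they are given side by side only.

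The differences of the 12 largest falls ran from −3.25 to −1.64. Icam1, an adhesion receptor for leukocytes that interferon gamma induces, ran from 7.27 to 11.15 on YAMC arrays (median 10.44) and from 5.92 to 10.11 on mp53 arrays (median 6.29). YAMC 2 was the low array of its group, and mp53 8 and mp53 10 (8.67) the high arrays of theirs. Icam1 fell by 3.25 ± 0.36 (limma adjusted p = 4.21e-09), and the difference was −4.20 ± 0.18 without the 3 arrays. It was also lower in mp53 than in bleo/Neo cells (−1.26), and bleo/Neo cells were lower than YAMC (−1.99).

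Perp encodes a desmosomal membrane protein and is a p53 target. Its YAMC levels ran from 9.21 to 11.89 (median 11.06) and its mp53 levels from 8.17 to 11.30 (median 8.48). Without YAMC 2 (9.21), mp53 8 (11.30) and mp53 10 (10.96), YAMC arrays lay between 10.83 and 11.89 and mp53 arrays between 8.17 and 8.76. Perp fell by 2.03 ± 0.30 (limma adjusted p = 1.38e-06), which is 4.08-fold, and its difference without the 3 arrays was −2.77. In bleo/Neo cells it was higher than in YAMC cells, by 1.41, so its fall against bleo/Neo was larger (−3.44). Scn3b, a sodium channel subunit gene, had medians of 9.32 in YAMC and 6.72 in mp53 cells and fell by 2.24 ± 0.26, against a difference of −0.24 between bleo/Neo and YAMC that did not pass. Cpz, a carboxypeptidase that acts on Wnt proteins, had medians of 9.70 and 7.67 and fell by 1.65 ± 0.25, with bleo/Neo at −0.03 from YAMC. Hoxd10, a posterior homeobox gene, had medians of 8.19 and 5.61 and fell by 2.03 ± 0.28, with bleo/Neo higher than YAMC by 0.47, which did not pass. With the 3 arrays left out Scn3b was at −2.79, Cpz at −2.15 and Hoxd10 at −2.65.

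C1s1, Ltbp2 and Itgb4 were lower by similar amounts in the vector population. C1s1, a protease of the complement cascade, fell by 2.59 ± 0.26 in mp53 cells and was at −2.75 in bleo/Neo against YAMC. Ltbp2, a latent TGF-beta binding protein gene, fell by 2.42 ± 0.26, with bleo/Neo at −2.57, and Itgb4, the hemidesmosomal integrin subunit, fell by 1.75 ± 0.31, with bleo/Neo at −1.87. None of these 3 genes passed between mp53 and bleo/Neo (0.15, 0.16 and 0.12). C1s1 (medians 5.44 and 5.59) and Ltbp2 (4.87 and 4.90) lay below the table median of 6.44 in mp53 and bleo/Neo cells. Dim levels limit what the test between those populations can show. Dkk2, a Wnt modulator, fell by 1.65 ± 0.28 and was lower still in bleo/Neo (−2.60). Gpx7, a glutathione peroxidase family member of the endoplasmic reticulum, fell by 1.64 ± 0.21, with bleo/Neo at −1.05 from YAMC. Sash1, a signalling scaffold gene, fell by 1.86 ± 0.33, with bleo/Neo at −0.71, which did not pass. Col4a4, a basement membrane collagen chain, fell by 1.78 ± 0.30, with bleo/Neo at 0.53, which did not pass either, and mp53 cells were at −2.32 from bleo/Neo. Leaving out the 3 arrays gave −3.15 for C1s1, −2.96 for Ltbp2, −2.47 for Itgb4, −1.99 for Dkk2, −2.09 for Gpx7, −2.66 for Sash1 and −1.97 for Col4a4. In all, 6 of the 12 falls were also called lower in bleo/Neo than in YAMC cells, beside 17.4% of all tested genes. Against bleo/Neo 8 of the 12 were called lower in mp53 cells, beside 18.9% of all tested genes. Of the 24 named rises and falls, 3 separated the 20 arrays without overlap and 23 did so without the 3 arrays, the exception being Akap5. Over all tested genes the shares without overlap were 0.155% higher and 0.0854% lower, and 2.38% and 3.86% without the 3 arrays. The 24 genes were chosen as the largest changes called at both settings, and that choice favours genes without overlap. In these 24 genes mp53 8 lay nearer the YAMC median in 21, mp53 10 in 11, and YAMC 2 lay nearer the mp53 median in 15.

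**Figure D3:**
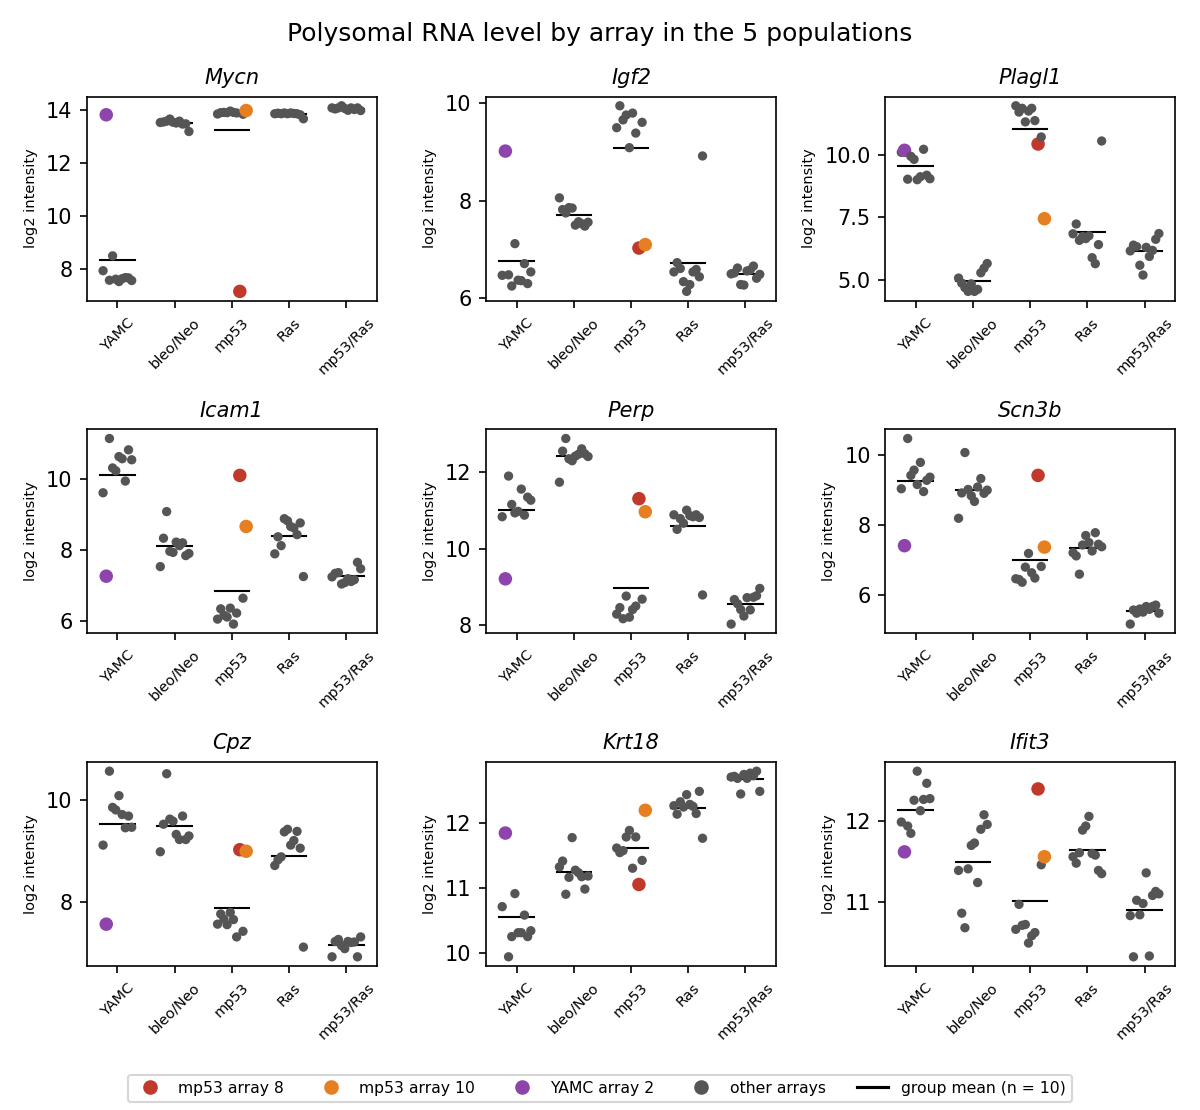
Log2 intensity of 9 genes on each of the 50 arrays by population, with the black line at the mean of 10 arrays; mp53 8 is red, mp53 10 orange and YAMC 2 purple. In Mycn, Perp and Scn3b the red point lies with the YAMC arrays and the purple point with or near the mp53 arrays; Perp is lower in both populations with mutant p53.

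Genes that p53 induces were lower in mp53 cells more often than they were higher. Of 57 tested p53 target genes, 23 (40.4%) were called lower and 3 (5.26%) higher, beside 11.8% and 11.1% over all tested genes, and the median difference was −0.14 beside 0.00. Without the 3 arrays 24 were lower and 6 higher. Leaving out any 1 array gave between 20 and 25 lower and 3 or 4 higher. The mean level of the 57 genes ran from 9.99 to 10.46 on YAMC arrays (median 10.26) and from 9.98 to 10.12 on mp53 arrays (median 10.04), with YAMC 2 the lowest of its group. It ran from 10.07 to 10.45 in bleo/Neo, from 10.02 to 10.12 in Ras and from 9.65 to 9.79 in mp53/Ras cells.

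Among the effectors of apoptosis, Perp fell the most. Pmaip1, which encodes the BH3-only protein Noxa, read 9.91 to 11.36 (median 10.78) on YAMC and 8.2 to 11.28 (median 9.80) on mp53 arrays, with mp53 10 lowest and mp53 8 highest. It fell by 0.98 ± 0.21 (limma adjusted p = 0.000476) and was also lower than in bleo/Neo (−1.40). Fas, a death receptor gene, read 10.15 to 10.84 on YAMC (median 10.39) and 9.56 to 10.19 on mp53 arrays (median 9.88), and the groups overlapped only at that edge. It fell by 0.49 ± 0.12 (limma adjusted p = 0.0021). Apaf1, the core of the apoptosome, fell by 0.37 ± 0.09, and Eda2r, a receptor of the TNF receptor family, by 0.41 ± 0.07. Dram1, a lysosomal protein of autophagy, read 8.21 to 8.80 (median 8.37) on YAMC and 7.52 to 8.28 (median 7.75) on mp53 arrays and fell by 0.61 ± 0.11. Here YAMC 2 was at 8.37, the median of its group. The differences without the 3 arrays were −1.06 for Pmaip1, −0.54 for Fas, −0.46 for Apaf1, −0.51 for Eda2r and −0.68 for Dram1. Against bleo/Neo, Fas (−0.71), Eda2r (−0.71) and Dram1 (−0.92) were also lower in mp53 cells, while Apaf1 (−0.13) did not pass.

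Among genes of arrest and senescence, Ptprv, a receptor phosphatase gene, read 7.90 to 9.61 (median 9.13) on YAMC and 7.46 to 9.24 (median 7.75) on mp53 arrays and fell by 1.08 ± 0.16 (limma adjusted p = 2.1e-06). Pml, the organiser of nuclear bodies, fell by 0.59 ± 0.12. Mdm2, the ubiquitin ligase that degrades p53, fell by 0.22 ± 0.07 (limma adjusted p = 0.0176), and it did not pass against bleo/Neo (0.03). Mdm4, an Mdm2 relative that restrains p53, fell by 0.47 ± 0.08, with another bright probe set at −0.04. Atm, the kinase that activates p53 after DNA breaks, fell by 0.52 ± 0.15. Cd82, a tetraspanin gene, was called higher (0.41 ± 0.11), but another of its bright probe sets differed by −0.27. With the 3 arrays left out Ptprv was at −1.40, Pml at −0.81, Mdm2 at −0.22, Mdm4 at −0.53, Atm at −0.67 and Cd82 at 0.50. Cdkn1a, the p21 inhibitor of cyclin-dependent kinases and a widely used p53 target, was at a median of 13.74 in both groups, with a difference of 0.00 ± 0.03. Ccng1, another common target, was at 0.06 ± 0.06, and neither passed the test. Both lay near the top of the intensity range, at medians above 13. Against bleo/Neo, Ptprv (−0.42) and Pml (−0.33) were also lower in mp53 cells. Mdm4 (−0.08), Atm (−0.12) and Cd82 (−0.25) did not pass there.

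No tested gene of the type I interferon response was called higher in mp53 cells, and the share called lower was 39.5%, beside 11.8% over all tested genes. These genes are induced through an interferon-stimulated response element (ISRE) in the promoter, and they include sensors of viral RNA and antiviral enzymes. Of 43 tested genes, 17 fell and 0 rose, with a median of −0.30, and 40 of the 43 differences were below 0. Without the 3 arrays 36 (83.7%) were called lower, again with 0 higher, and the median was −0.59. Leaving out YAMC 2 alone gave 29 called lower, leaving out mp53 8 gave 23, mp53 10 gave 19 and mp53 1 gave 16. The mean level of the 43 genes was 9.16 on YAMC 2, the lowest of all YAMC arrays, whose median was 10.30. On mp53 arrays it ran from 9.67 to 10.45 with a median of 9.74, and mp53 8 (10.45) and mp53 10 (10.39) were the highest.

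The promoters of 3 of these genes are shown because all 3 genes fell and all 3 promoters hold the ISRE motif. Each line gives a stretch of the gene's own strand upstream of its start, 5′ to 3′, from RefSeq promoter sequences on GRCm38.p6, with capitals at each match to the ISRE core on either strand, GAAA followed by any 2 bases and GAAA. The stretches are chr19:34583358-34583431 on the plus strand for Ifit3, chr5:120777710-120777749 on the minus strand for Oas3 and chr12:26456548-26456587 on the minus strand for Rsad2.
Ifit3: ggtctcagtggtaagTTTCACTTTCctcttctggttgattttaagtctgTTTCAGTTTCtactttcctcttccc
Oas3: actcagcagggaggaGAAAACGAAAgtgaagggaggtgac
Rsad2: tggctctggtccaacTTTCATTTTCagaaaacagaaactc
The motif was found in the 250 bases before the start of 3.46% of all 27025 promoters and of 3.07% of the 10364 tested genes with a promoter sequence. It was found in 9 of the 31 tested interferon genes with a sequence (29.0%) and in 3 of the 9 that were called lower (33.3%). A match describes these letters only and does not show that a factor binds there.

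Ifit3, an inhibitor of viral translation whose promoter above holds 2 matches, read 11.62 to 12.62 (median 12.20) on YAMC and 10.49 to 12.40 (median 10.71) on mp53 arrays. It fell by 1.13 ± 0.18 (limma adjusted p = 4.67e-06), a 2.19-fold change, and was also lower than in bleo/Neo (−0.48). mp53 8 was the only mp53 array above 12, and without the 3 arrays the groups lay apart, from 10.49 to 11.46 and from 11.85 to 12.62. Oas2 and Oas3 encode enzymes that make the activator of RNase L. Oas2 read 7.23 to 9.37 (median 8.82) on YAMC and 7.33 to 9.33 (median 7.46) on mp53 arrays and fell by 1.04 ± 0.21, while Oas3 had medians of 9.07 and 8.04 and fell by 0.65 ± 0.16. Rsad2, which encodes viperin, had medians of 10.62 and 9.39 and fell by 0.72 ± 0.21 (limma adjusted p = 0.0103). In each of Oas2, Oas3 and Rsad2, YAMC 2 was the lowest YAMC array, and mp53 8 and mp53 10 were the highest mp53 arrays. Leaving out the 3 arrays gave −1.43 for Ifit3, −1.53 for Oas2, −0.95 for Oas3 and −1.19 for Rsad2. Against bleo/Neo, Oas3 (−0.75) was also lower in mp53 cells, while Oas2 (−0.31) and Rsad2 (0.03) did not pass.

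The sensors of double-stranded RNA fell as well. Dhx58 fell by 0.65 ± 0.16 and Ifih1, which encodes MDA5, by 0.49 ± 0.14. Irf7, the transcription factor that amplifies the response, fell by 0.47 ± 0.15, and Oasl2 fell by 0.76 ± 0.21. The calls of Ifih1, Irf7 and Oasl2, and of Rsad2 above, were lost when only the 20 mp53 and YAMC arrays were fitted. The differences without the 3 arrays were −1.01 for Dhx58, −0.77 for Ifih1, −0.71 for Irf7 and −1.28 for Oasl2. Set beside the vector population, 10 of the 43 genes were called lower and 4 higher in bleo/Neo than in YAMC cells, beside 17.4% lower and 20% higher of all tested genes. Between mp53 and bleo/Neo cells 11 were called lower and 1 higher, beside 18.9% and 16.5%. The shares called lower, 23.3% and 25.6%, lie near those over all genes. The 4 and 1 genes of 43 called higher are smaller shares than the 20% and 16.5% over all genes. Irf7 (−0.40) was lower in mp53 than in bleo/Neo cells, while Dhx58 (−0.33), Ifih1 (−0.23) and Oasl2 (−0.25) did not pass there.

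Of 28 genes of interferon gamma signalling and antigen presentation, 10 fell (35.7%, beside 11.8% of all tested genes) and 0 rose. When the 3 arrays were left out, 16 fell (57.1%, beside 16.3%) and 2 rose (7.14%, beside 16.1%). Gbp3, an interferon-induced GTPase gene, read 10.79 to 12.34 (median 11.99) on YAMC and 10.45 to 12.33 (median 10.81) on mp53 arrays and fell by 0.92 ± 0.17. H2-Eb1, a class II histocompatibility gene, fell by 0.86 ± 0.21, and Icam1 is a member of this list as well. The class II genes H2-Aa (0.00), H2-Ab1 (0.13) and H2-DMa (−0.27) of the same list, and Cd74 (0.47), did not pass. They were named after their values were seen. Gbp3 was at −1.30 and H2-Eb1 at −1.01 without the 3 arrays, and the 2 genes that then rose were H2-Ab1 (0.30) and Cd74 (0.95). Gbp3 (−1.02) and H2-Eb1 (−1.37) were also lower in bleo/Neo than in YAMC cells, and neither passed between mp53 and bleo/Neo.

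The promoters of 2 p53 targets that fell are printed with their match to the p53 half-site, again 5′ to 3′ on the gene's strand. They are chr10:117710920-117710959 on the minus strand for Mdm2 and chr9:58249906-58249945 on the minus strand for Pml, with the half-site in capitals.
Mdm2: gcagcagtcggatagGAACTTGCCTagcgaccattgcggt
Pml: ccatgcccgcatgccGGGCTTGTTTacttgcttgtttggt
A single half-site was present in 8.2% of all promoters, in 11 of the 45 tested p53 targets with a sequence (24.4%) and in 6 of the 19 that were called lower (31.6%). A pair of half-sites separated by at most 13 bases, the full p53 element, was present in 1 of the 45 and in 0 of the 19, beside 0.0666% of all promoters. These windows end at the gene's start, and elements in introns were not searched.

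**Figure D4:**
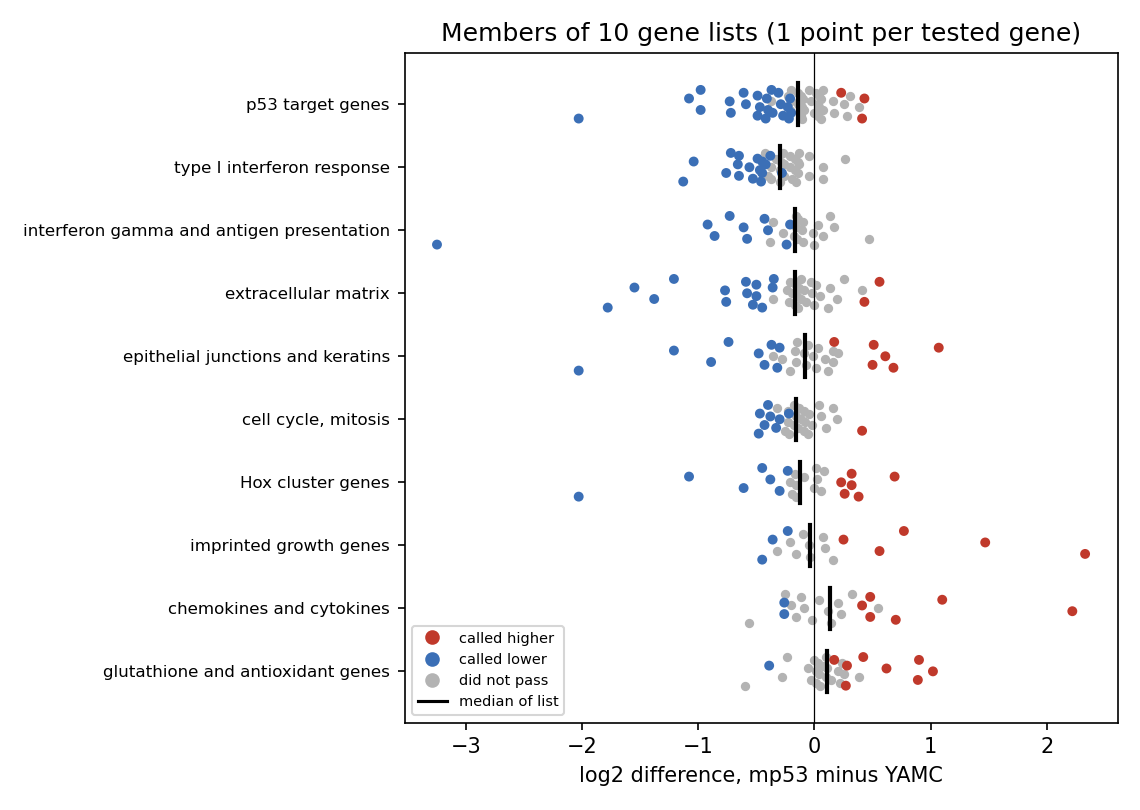
Log2 difference between mp53 and YAMC cells for every tested member of 10 gene lists, with called members in red (higher) or blue (lower), members that did not pass in grey and the list median as a black line. No member of either interferon list is called higher, and 23 of 57 p53 targets are called lower; glutathione genes are mostly to the right of 0.

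Of 40 extracellular matrix genes, 14 were called lower (35.0%, beside 11.8% of all tested genes) and 2 higher (5.0%, beside 11.1%), with a median of −0.16. Of the genes described above, Abi3bp (1.45) and Mgp (1.26), which rose, and Ltbp2 (−2.42), which fell, were not on this list. When the 3 arrays were left out, 15 were lower and 4 higher. Basement membrane genes were among those that fell. Col4a3, a collagen IV chain gene, read 5.63 to 7.02 (median 6.60) on YAMC and 4.88 to 5.87 (median 5.01) on mp53 arrays and fell by 1.38 ± 0.17, and its neighbour in the same collagen network, Col4a4, is described above. Nid1, which encodes the laminin-binding protein nidogen, fell by 1.21 ± 0.22, although its other bright probe set was at −0.02. Vcan, a large proteoglycan gene, had medians of 7.46 and 5.41 and fell by 1.55 ± 0.33. Dcn, a small proteoglycan gene, rose by 0.56 ± 0.19 (limma adjusted p = 0.023). Leaving out any 1 of 5 arrays ended that call, namely mp53 1, mp53 2, mp53 3, mp53 6 or YAMC 10 (differences of 0.49 to 0.51, limma adjusted p from 0.0531 to 0.0572). With the 3 arrays left out Col4a3 was at −1.54, Nid1 at −1.55, Vcan at −2.18 and Dcn at 0.82. Against the vector population 16 matrix genes were higher (40.0%, beside 16.5% of all tested genes) and 6 lower (15.0%, beside 18.9%) in mp53 cells. Between bleo/Neo and YAMC cells 23 of the 40 were lower (57.5%, beside 17.4%) and 3 higher.

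Keratin and junction genes moved both ways, with 6 of 32 higher (18.8%, beside 11.1% of all tested genes) and 9 lower (28.1%, beside 11.8%). When the 3 arrays were left out, 8 were higher and 11 lower. Krt18 read 9.94 to 11.84 (median 10.33) on YAMC and 11.05 to 12.19 (median 11.59) on mp53 arrays and rose by 1.07 ± 0.14 (limma adjusted p = 7.89e-08). YAMC 2 was the only YAMC array above the lowest mp53 array. Krt8, its partner in simple epithelial filaments, rose by 0.61 ± 0.10. Krt19, another simple epithelial keratin gene, had medians of 9.42 and 8.12 and fell by 0.89 ± 0.24, while in bleo/Neo cells it was higher than in YAMC by 2.21. St14, which encodes the membrane protease matriptase, fell by 1.21 ± 0.21. Leaving out the 3 arrays gave 1.21 for Krt18, 0.63 for Krt8, −1.33 for Krt19 and −1.59 for St14.

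Glutathione and antioxidant genes were called higher in 8 of 30 cases (26.7%, beside 11.1% of all tested genes) and lower in 1 (3.33%, beside 11.8%), with a median of 0.10. Gpx7 (−1.64), described above among the largest falls, was not on this list and is not in these counts. Mgst2, a microsomal glutathione transferase gene, read 7.42 to 8.58 (median 7.71) on YAMC and 7.54 to 9.18 (median 8.96) on mp53 arrays and rose by 1.02 ± 0.15. mp53 8 was the low array of its group and YAMC 2 the high one of its own. Gstm1 rose by 0.89 ± 0.15 and Gsta3 by 0.90 ± 0.14, both cytosolic transferases. Mgst2 and Gstm1 were lower in bleo/Neo than in YAMC cells (−0.77 and −0.79), whereas Gsta3 was higher (1.60). Without the 3 arrays 12 of the 30 genes were called higher (40.0%, beside 16.1%) and 4 lower (13.3%, beside 16.3%), and Mgst2 was at 1.25, Gstm1 at 1.19 and Gsta3 at 1.10.

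Chemokine and cytokine genes were called higher in 6 of 22 cases (27.3%, beside 11.1% of all tested genes) and lower in 2 (9.09%, beside 11.8%), and in 4 and 2 cases when the 3 arrays were left out. Cxcl12, a chemokine of stromal cells, read 8.83 to 10.75 (median 10.17) on YAMC and 9.33 to 12.64 (median 11.31) on mp53 arrays and rose by 1.10 ± 0.29. Other bright probe sets of Cxcl12 ranged from −0.10 to 1.46. Hox genes were called higher in 6 of 24 cases (25%) and lower in 7 (29.2%), the latter with Hoxd10 and Hoxc10 (−1.08 ± 0.16). Of 17 imprinted growth genes 5 rose (29.4%) and 3 fell (17.6%), and Peg3, a paternally expressed zinc-finger gene, rose by 0.77 ± 0.20. With the 3 arrays left out Cxcl12 was at 1.36, Hoxc10 at −1.40 and Peg3 at 0.73, and 6 Hox genes were higher and 9 lower, and 6 imprinted genes higher and 5 lower.

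Among genes of proliferation, 8 of 31 mitosis genes were called lower (25.8%, beside 11.8% of all tested genes) and 1 higher (3.23%, beside 11.1%), with Cenpe, a kinetochore motor gene, at −0.48 ± 0.16. Its call was lost without any 1 of 6 arrays, namely mp53 4, mp53 6, mp53 7, YAMC 3, YAMC 5 or YAMC 8 (−0.45 to −0.41, limma adjusted p from 0.0529 to 0.0716). Of 36 replication genes 5 were called lower (13.9%) and 0 higher. Myc (0.09 ± 0.17) and Ccnd1 (0.14 ± 0.10), the genes of a growth-promoting transcription factor and of cyclin D1, did not pass. Of 31 genes of MAPK feedback and ERK induction 3 rose (9.68%) and 5 fell (16.1%), among them Fosl1, an AP-1 subunit gene (−0.72 ± 0.24, with another bright probe set at −0.15). The Fosl1 call was lost without mp53 1 or without YAMC 3 (−0.64 in both cases, limma adjusted p of 0.0512 and 0.0515). Leaving out the 3 arrays gave −0.68 for Cenpe and −1.06 for Fosl1, with 11 mitosis, 7 replication and 8 MAPK genes called lower and 2, 0 and 3 higher. Vim (−0.01 ± 0.07) and Actb (−0.01 ± 0.06) did not pass. The counts of the remaining lists, higher and lower, stand beside 11.1% and 11.8% of all tested genes. They were the genes of cholesterol synthesis (0 higher and 1 lower of 20), the unfolded protein response (0 and 6 of 34), glycolysis and hypoxia (2 and 6 of 35) and ribosomal proteins (2 and 0 of 25). Next came matrix proteases (3 and 3 of 23), mesenchymal transition genes (1 and 3 of 23), the TGF-beta and BMP pathway (4 and 7 of 35), the Wnt pathway (2 and 8 of 33) and the Notch pathway (3 and 5 of 21). The BCL2 family and death receptors (2 and 7 of 31), the EGF receptor family (0 and 2 of 12) and the p53 family and regulators (2 and 6 of 19) complete the lists. The shares called lower were 31.6% for the p53 family and regulators, 24.2% for the Wnt pathway, 23.8% for the Notch pathway and 22.6% for the BCL2 family and death receptors.

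The same mutant p53 was also introduced into cells with activated Ras, which gives a comparison on other arrays in which both populations carry vectors. Between mp53/Ras and Ras cells 2779 genes (21.6%) were called, 1175 higher (9.12%) and 1604 lower (12.5%). Of the 2952 genes called between mp53 and YAMC cells, 968 were called there too, which is 32.8% of that list and 34.8% of the list in Ras cells. Of the 968, 806 (83.3%) had the same direction and 162 the opposite one. The sign was the same in 70.8% of the 2952 genes, beside 60.7% of all tested genes. Of the 73 genes that were at least 2-fold lower in mp53 than in YAMC cells, 33 were called lower and 7 higher in mp53/Ras than in Ras cells. Of the 30 that were at least 2-fold higher, 3 were called higher and 4 lower. Both sets stand beside 9.12% higher and 12.5% lower of all tested genes. One Ras array, Ras 10, lay nearer mp53 (0.275) than the other Ras arrays (0.489), and without it 813 of 968 shared genes had the same direction.

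The p53 targets were lower in this comparison too, with 29 of 57 called lower, 2 higher and a median of −0.26. Over all tested genes 12.5% were called lower there and 9.12% higher. Pmaip1 was at −2.40 ± 0.21, Perp at −2.05 ± 0.30, Fas at −1.12 ± 0.12 and Eda2r at −0.55 ± 0.07, and all 4 passed. Mdm2 (−0.49 ± 0.07) and Cdkn1a (−0.27 ± 0.03) passed as well, the latter not having passed between mp53 and YAMC cells. Scn3b (−1.79 ± 0.26), Cpz (−1.76 ± 0.25) and Icam1 (−1.11 ± 0.36) were the other large falls that recurred. Of the type I interferon genes 11 of 43 were called lower and 0 higher, beside the same 12.5% and 9.12%, with Ifit3 at −0.75 ± 0.18. Of the 12 largest rises, Cxcl15 was the only gene called higher in mp53/Ras than in Ras cells (1.58 ± 0.35), and Sfrp2 was called lower (−1.36 ± 0.37).

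**Figure D5:**
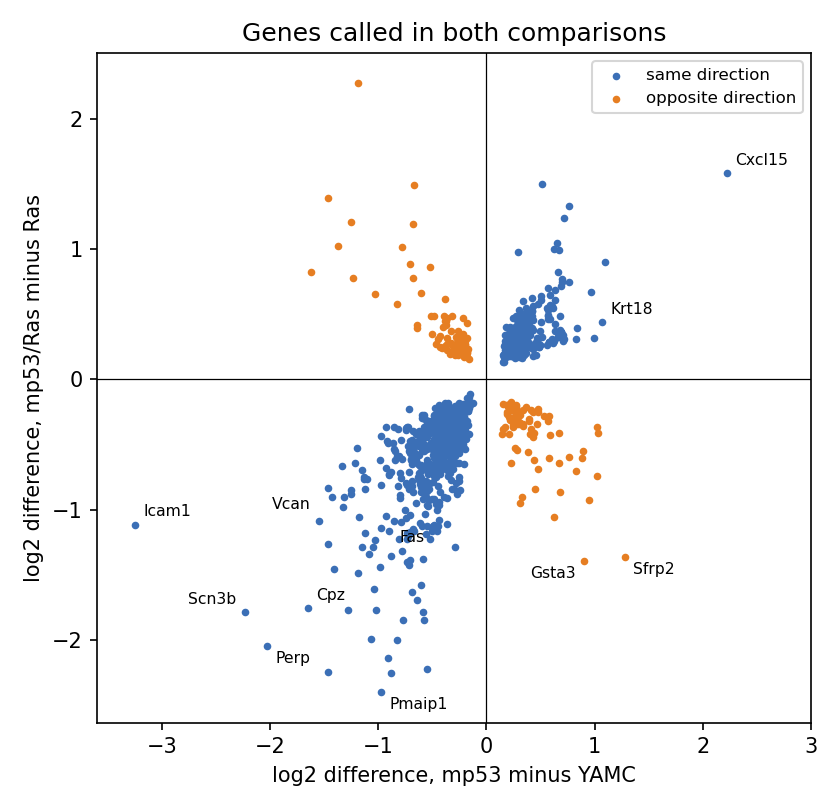
Log2 differences of the 968 genes called in both comparisons, mp53 minus YAMC (horizontal) and mp53/Ras minus Ras (vertical); blue points (806) have the same direction and orange points (162) the opposite one. Perp, Scn3b, Cpz and Pmaip1 are among the genes lowest in both comparisons, and Gsta3 and Sfrp2 are higher in the first and lower in the second.

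The difference between the 2 effects was tested directly as (mp53/Ras minus Ras) minus (mp53 minus YAMC), and 1602 genes (12.4%) were called. The 2 effects differ in more than Ras, since YAMC cells lack the vectors that Ras cells carry. Pmaip1 (−1.42) and Fas (−0.63) fell by more between mp53/Ras and Ras than between mp53 and YAMC cells. The effects also differed for Igf2 (−2.55), Plagl1 (−2.24), Gsta3 (−2.30) and Mgst2 (−1.76), which rose against YAMC. Igf2 (−0.22) and Plagl1 (−0.77) did not pass between mp53/Ras and Ras cells. Gsta3 was lower in mp53/Ras than in Ras cells by −1.39 ± 0.14 and Mgst2 by −0.74 ± 0.15.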

How the data were processed

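Per the submitters' processing notes, the authors summarised the Affymetrix mouse arrays with RMA (version not given in the sources used here) from 5 µg of RNA per array. The deposited table holds linear intensity values for 45101 probe sets, of which 64 are blank. Array medians lie between 86.44 and 86.67. The values were taken to log2. The deposited annotation gives 34945 probe sets 1 gene symbol, 932 several and 9160 none, and only the first kind was named (34741 of them matched a RefSeq gene number). For each gene the brightest probe set on average was taken, and the gene was tested where that probe set lay above the table median on at least 10 of 50 arrays. All 50 arrays entered 1 limma fit (3.58.1, R 4.3.3) with a coefficient per population, an intensity trend and 45 residual degrees of freedom, with Benjamini-Hochberg adjustment over the 12883 tested genes. On simulated data of the same size, 81% of genes shifted by 0.5 log2 and 100% of genes shifted by 1 were recovered, and 4.7% of calls were false. The numbered arrays of mp53 and YAMC were not treated as pairs, since 8 of 10 pairs and not all deviated together. The pairs that did not were number 2, with YAMC 2 (correlation −0.12), and number 8, with mp53 8 (0.0). Both hold an array that stood apart, so these correlations cannot decide whether the numbers mark pairs. The files give no scan dates, batches or detection calls.

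The members and the gene lists were chosen with earlier results of these data known. Named genes are the 12 largest rises and 12 largest falls among genes called both with all arrays and without the 3 arrays that stood apart, called members of the p53 and type I interferon lists, up to 4 called members of other lists (and the largest one against the majority), marker genes and reference genes; predicted names were passed over. Other bright probe sets are quoted for some genes where they disagree. Differences not given above include those of Col4a4 (−1.96 and −0.64), Peg3 (0.35) and Ccng1 (0.16 and 0.36). Promoters come from RefSeq (GRCm38.p6). Python 3.11.15 and pandas 2.3.3 made the tables. Alternatives changed the filter, offset, probe-set choice, weights, centring, blocking and arrays.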

Additional observations from a re-analysis of the deposited data

Results flagged for a closer look

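In 37 of the 67 named genes 1 array stood far from the rest of its group, 44 cases in 134 groups of 10 arrays: the gap between the highest or lowest array and its neighbour exceeded Dixon's critical share of the group's whole range. Chance gives such a case in about 1 group of 20. YAMC 2 accounted for 23 of them, mp53 8 for 15, mp53 10 for 5 and mp53 7 for 1. YAMC 2 was the high array for Mycn (13.82), Igf2 (9.02), Krt18 (11.84) and Mgst2 (8.58). It was the low array for Icam1 (7.27), C1s1 (5.72), Ltbp2 (4.66), Scn3b (7.41), Hoxd10 (6.83), Perp (9.21), Sash1 (5.64), Itgb4 (7.09) and Cpz (7.57), and also for Gpx7 (7.18), Pml (10.04), Oas2 (7.23), Oasl2 (9.61), Rsad2 (8.42), Dhx58 (6.72), Irf7 (8.40), Gbp3 (10.79), Krt19 (8.49) and Hoxc10 (7.87). mp53 8 was the low array for Mycn (7.16), Cd82 (9.15), Mgst2 (7.54), Gstm1 (8.57) and Myc (7.67), and the high one for C1s1 (8.10), Ltbp2 (6.72), Scn3b (9.41), Gpx7 (9.31), Ptprv (9.24), Atm (9.32), Ifih1 (11.73), Irf7 (9.93), Nid1 (9.72) and Cenpe (10.38). mp53 10 was the low array for Plagl1 (7.45), Abi3bp (5.09) and Sfrp2 (6.96) and the high one for Fosl1 (10.52) and Ccnd1 (13.36). mp53 7 was the low array for H2-Eb1 (9.71).

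For 31 named genes the log2 difference mp53/Ras minus Ras departed from mp53 minus YAMC. This was tested as the difference of the 2 log2 differences, the first less the second (limma, adjusted p under 0.05). Ras cells carry vectors and YAMC cells do not, and these cannot be told apart from the presence of Ras. The difference was below 0 for Mycn (−4.66), Igf2 (−2.55), Epha4 (−1.52), Plagl1 (−2.24), Abi3bp (−2.04), Itgb8 (−1.50), Sfrp2 (−2.64) and Mgp (−1.31). It was also below 0 for Ctnna2 (−1.54), Pmaip1 (−1.42), Fas (−0.63), Krt18 (−0.63), Krt8 (−0.51), Mgst2 (−1.76), Gsta3 (−2.30), Gstm1 (−0.88), Cdkn1a (−0.28) and Ccng1 (−0.29). It was above 0 for Icam1 (2.14), C1s1 (2.68), Ltbp2 (2.21), Hoxd10 (1.86), Col4a4 (1.78), Dkk2 (2.40), Gpx7 (1.77), Ptprv (0.83), Mdm4 (0.37), Oas2 (1.03), Col4a3 (1.64), Nid1 (1.35) and Hoxc10 (1.35). Some of these genes did not pass between mp53 and bleo/Neo cells, such as Mycn (−0.28), C1s1 (0.15) and Ltbp2 (0.16). Others did pass there, such as Igf2 (1.39) and Hoxd10 (−2.50).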

How the results depend on the processing

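The results were recomputed under 31 other settings, and none of them turned the direction of a called named gene. Of the 61 called named genes, 49 kept their call under every setting that tested them. Cenpe lost it under 9, Dcn under 6, Fosl1 and Mdm2 under 3 each, Rsad2 under 2, and Apaf1, Atm, Cd82, Dhx58, Ifih1, Irf7 and Oasl2 under 1 each, mostly where another probe set, the mean of all probe sets or only the 20 mp53 and YAMC arrays were used. Beside the 2952 genes called, no filter on dim probe sets gave 4711 (2361 higher, 2350 lower) from more genes tested, and array weights gave 5971 (3061 higher, 2910 lower). The 103 genes of at least 2-fold became 202 with array weights, 45 with an offset of 50 before log2, and 205 without mp53 8, mp53 10 and YAMC 2. Without those 3 arrays the genes shared with mp53/Ras against Ras in the same direction rose from 806 to 1240. Leaving out 1 array at a time gave 2530 to 3825 called (1205 to 1860 higher, 1313 to 1965 lower) and 93 to 139 of at least 2-fold. The replicate number as a block gave 3542 called genes. The correlations of same-numbered arrays ran from −0.12 to 0.72, 4 of 10 pairs were most alike with their own number, and the numbers were not taken as pairing. The cause of these shifts was not tested apart from the settings' own construction. Arrays limit small differences and those of dim probe sets, and bright probe sets near 14 leave little room for rises.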

Other observations

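The vector population stands apart from both groups in a way that touches the values set beside it. Eif2s3y, a Y-linked translation factor gene chosen after its values were seen, had a mean level of 3.73 in bleo/Neo against 8.38 in YAMC and 8.96 in mp53 cells, and was at 8.28 in Ras and 7.94 in mp53/Ras cells. Between mp53 and YAMC cells it differed by 0.58 ± 0.17 (limma adjusted p = 0.00984). Its part in other differences from bleo/Neo was not tested.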
